A study of Mus musculus with 2 samples.

Results

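The 10 genes below belong to heart muscle cells and were followed in RNA from mouse lung, where such cells sheathe the pulmonary veins. The genes were chosen by symbol, as Myl7, Myl4, Nppa, Sln, Tnnt2, Tnni3, Actc1, Ryr2, Myh6 and Mybpc3, and all 10 were found among the 37315 gene identifiers of both count files. The tissue was lung of C57BL/6 mice, an inbred laboratory strain, with 1 control library and 1 library from mice exposed to PM2.5, the fine fraction of airborne particles. The labels name no allele or transgene and give no age, sex, dose or route, nor how many animals stand behind each library. Each title carries a 12 and a W that the labels do not explain. With 1 library per group the differences have no replicate check. Each ratio below (PM2.5 over control) is followed by its exact 95% interval, which reflects counting alone, and it describes these 2 libraries rather than the exposure. Because the RNA is of whole lung, fewer cells of a type and less RNA per cell cannot be told apart.

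In mice, the muscle coat of the left atrium continues along the pulmonary veins into the lung, and its cells beat and carry the atrial form of the contractile machinery. Contraction starts when an action potential opens calcium channels, calcium leaves the store through the ryanodine receptor, and calcium binding to troponin frees actin for myosin. The calcium pump then refills the store. Atrial cells also differ from ventricular cells in their myosin light chains, in the small pump inhibitor sarcolipin and in storing the natriuretic peptide that Nppa encodes.

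All 10 genes were detected in both libraries, with 23111 of 62788045 counts in the control library and 26295 of 57435027 in the PM2.5 library, which is 0.0368% and 0.0458%. The atrial regulatory light chain gene Myl7 had 1475 and 2298 counts, whereas its ventricular counterpart Myl2 had 14 and 18, and the ventricular regulator Irx4 had none in either library. Myh7 and Myl3, which ventricles use, were present all the same, with 2372 and 142 control counts, so the markers do not separate atrial from ventricular muscle in full. The files carry no position that would place the cells at the veins. Bmp10, an atrial growth factor gene, had no count in either library.

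Levels between genes were compared per length, as CPM, the counts normalised to the scaled size of each library, per kb of the longest protein-coding transcript. In the control library Actc1 was highest at 66.8 CPM per kb, followed by Myl7 at 43.1, Myl4 at 41.4, Myh6 at 26.8, Tnnt2 at 20.9 and Tnni3 at 20.7. Sln at 4.17, Nppa at 1.77, Mybpc3 at 1.36 and Ryr2 at 0.918 were lower, and Myl2 lay at 0.272. In the PM2.5 library Actc1 was again first at 88.9 CPM per kb, then Myl4 at 67.8, Myl7 at 62.6, Tnnt2 at 47.4 and Tnni3 at 41.8. Myh6 had moved from the fourth place to the sixth, at 10.2 CPM per kb, and the last 4 kept their places, from Sln at 9.21 to Ryr2 at 0.702. The highest and lowest levels lay 72.7-fold apart in the control and 127-fold apart in the PM2.5 library. Neighbours such as Myl7 and Myl4, or Tnnt2 and Tnni3, lay close together in the control library, and the spread between animals that would separate them was not measured.

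**Figure D1:**
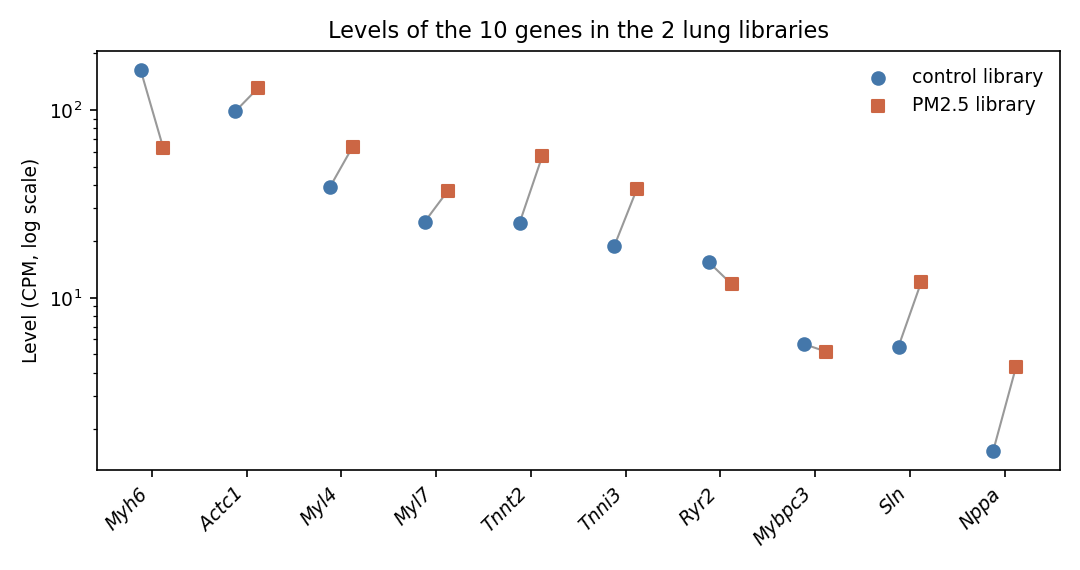
Level of each of the 10 genes in CPM (log scale) in the control library (circles) and the PM2.5 library (squares), 1 library each, with a line joining the pair. Nppa goes from 1.54 to 4.28 CPM and Myh6 from 164 to 62.7 CPM, the lowest ratio of the 10.

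Promoter windows are shown for the 2 genes with the highest ratios, Nppa and Tnnt2, for Myh6, which had the lowest, and for Myl7, the atrial light chain used as reference below. The windows run from 250 bases before the transcript start to 50 after it, and come from RefSeq on GRCm38.p6, which is the mm10 assembly of the files. Of the 10 genes 9 matched, all but Sln. Capitals mark matches on either strand to a MEF2 site, a CArG box, a GATA site, an NKX2-5 site, an M-CAT or a TATA box.
Nppa (chr4:148000472-148000771, plus strand): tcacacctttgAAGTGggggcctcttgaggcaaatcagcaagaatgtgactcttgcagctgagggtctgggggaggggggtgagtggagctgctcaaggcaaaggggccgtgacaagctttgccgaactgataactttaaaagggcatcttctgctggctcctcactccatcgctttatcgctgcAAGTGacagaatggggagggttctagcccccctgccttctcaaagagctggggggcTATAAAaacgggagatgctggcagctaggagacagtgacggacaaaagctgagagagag
Tnnt2 (chr1:135836084-135836383, plus strand, 1 of its 2 windows): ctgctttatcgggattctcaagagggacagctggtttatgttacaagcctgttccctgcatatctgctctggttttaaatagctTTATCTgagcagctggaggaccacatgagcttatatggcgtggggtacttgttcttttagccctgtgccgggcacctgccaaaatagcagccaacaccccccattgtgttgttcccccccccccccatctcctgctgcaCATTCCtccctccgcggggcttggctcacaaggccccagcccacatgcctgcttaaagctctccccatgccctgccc
Myh6 (chr14:54966558-54966857, minus strand): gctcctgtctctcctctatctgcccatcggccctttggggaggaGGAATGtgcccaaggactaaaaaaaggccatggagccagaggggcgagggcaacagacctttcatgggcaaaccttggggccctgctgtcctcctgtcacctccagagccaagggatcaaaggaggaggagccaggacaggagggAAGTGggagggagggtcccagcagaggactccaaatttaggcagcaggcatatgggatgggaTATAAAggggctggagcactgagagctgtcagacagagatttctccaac
Myl7 (chr11:5898733-5899032, minus strand): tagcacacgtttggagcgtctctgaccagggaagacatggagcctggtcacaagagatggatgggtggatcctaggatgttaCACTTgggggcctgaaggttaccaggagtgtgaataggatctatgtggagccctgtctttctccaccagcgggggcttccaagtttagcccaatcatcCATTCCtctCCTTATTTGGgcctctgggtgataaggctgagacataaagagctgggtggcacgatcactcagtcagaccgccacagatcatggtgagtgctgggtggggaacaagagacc

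The letters differed from gene to gene, and no motif was found in all of Nppa, Tnnt2, Tnni3 and Myl4, the higher genes that had a window. Nppa held a pair of matches to the NKX2-5 site, searched as AAGTG, and a TATA box, searched as TATAAA. Tnnt2 held a GATA site, searched as AGATAA, in the window shown. That window also held an M-CAT, the site of TEAD factors, searched as CATTCC. Its other window held only E-boxes, searched as CANNTG and not in capitals. Myh6 held an M-CAT, an NKX2-5 match and a TATA box. Myl7 held a CArG box, the site of serum response factor, beside an M-CAT and an NKX2-5 match. Among the 9 genes a CArG box was present in 2 (Actc1 and Myl7), a MEF2 site in 1 (Mybpc3), an M-CAT in 3 and an NKX2-5 match in 5. Among 32851 windows of the same length, 1.63% held a CArG box, 3.19% a MEF2 site, 14.7% an M-CAT and 46.4% an NKX2-5 match. A GATA site was found in 11.2% of all windows and in Tnnt2 alone of the 9, a TATA box in 13.6% and in 3, and an E-box in 72.3% and in 8. The TATAAA of Nppa lay at -9 to -4 from the annotated start. Those of Myh6 and Actc1 lay after the start, at bases 2 to 7 and 34 to 39. The NKX2-5 matches of Mybpc3 and Myl7 and 1 of the 2 in Nppa overlap an E-box. These are matches of letters only.

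Of the 2 atrial myosin light chains, Myl4 was counted as higher in the PM2.5 library and Myl7 fell just short of the size. Myl7, the regulatory light chain (ENSMUSG00000020469, GRCm38 chromosome 11, 5896637 to 5898782, minus strand), had 1475 control counts or 25.4 CPM and 2298 counts or 36.9 CPM with PM2.5. The ratio was 1.45 (1.36 to 1.55), where 1.5-fold is the size at which a gene is counted as higher. Myl4, the essential light chain (ENSMUSG00000061086, chromosome 11, 104550663 to 104595753, plus strand), had 2261 counts or 39.0 CPM and 3975 counts or 63.9 CPM. Its ratio was 1.64 (1.56 to 1.73). With the trend with transcript length removed, as described below, the ratios were 0.967 for Myl7 and 1.21 for Myl4. Myl7 then lay close to equality and Myl4 was no longer counted as higher. With the longest transcript of any type in that fit, Myl4 had a log2 ratio of 0.74 and was still counted as higher. The pair kept nearly the same proportion, with 1.53 Myl4 counts per Myl7 count in the control and 1.73 in the PM2.5 library. Of their ventricular counterparts, Myl3 was 1.51-fold lower (1.16 to 1.97) on 142 and 101 counts, and Myl2 stayed below 1 CPM in both libraries.

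Of the thin filament, both troponin subunits were counted as higher, and actin as neither. Tnnt2, cardiac troponin T, which anchors the complex on tropomyosin (ENSMUSG00000026414, chromosome 1, 135836354 to 135852260, plus strand), had 1451 counts or 25.03 CPM and 3535 counts or 56.8 CPM, a ratio of 2.27 (2.14 to 2.42). Tnni3, the inhibitory subunit (ENSMUSG00000035458, chromosome 7, 4518305 to 4524229, minus strand), had 1094 counts or 18.9 CPM and 2370 counts or 38.1 CPM, a ratio of 2.02 (1.88 to 2.17) that came to 1.48 with the trend with transcript length removed. Its gene overlaps Dnaaf3 on the same strand, which had 262 and 499 counts, so some reads of the pair may be uncertain. The calcium-binding subunit Tnnc1, no member of the 10, was 2.50-fold higher (2.18 to 2.87) on 289 and 774 counts. The 3 subunits thus kept similar proportions: the count of Tnnt2 per count of Tnnc1 was 5.02 in the control and 4.57 in the PM2.5 library, a change of 0.910-fold (0.781 to 1.06), and that of Tnni3 per count of Tnnt2 changed by 0.889-fold (0.808 to 0.978). Actc1, cardiac alpha-actin (ENSMUSG00000068614, chromosome 2, 114047282 to 114053548, minus strand), had 5704 counts or 98.4 CPM and 8144 counts or 131 CPM, a ratio of 1.33 (1.29 to 1.38). Acta1, the skeletal alpha-actin, was almost absent with 4 and 10 counts.

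Of the thick filament, the heavy chain gene Myh6 was lower and the binding protein gene Mybpc3 met neither size. Myh6, the fast alpha heavy chain that is the motor of mouse atrium and ventricle (ENSMUSG00000040752, chromosome 14, 54941921 to 54966927, minus strand), had 9494 counts or 164 CPM in the control library and 3897 counts or 62.7 CPM in the PM2.5 library. It was 2.61-fold lower (2.52 to 2.71), and the only one of the 10 genes counted as lower. Myh7, the slow beta heavy chain, was also lower, by 2.19-fold (2.04 to 2.35), with 2372 and 1162 counts. The Myh6 count per Myh7 count was 4.0 in the control and 3.35 in the PM2.5 library. The 2 heavy chains are close copies, and 8.10% of the 125-base windows of the Myh6 transcript also occur in Myh7, so a part of the reads cannot be assigned to either by sequence. No window of that length in the other 9 genes was found in a transcript of another gene. Mybpc3, the binding protein that tethers myosin heads (ENSMUSG00000002100, chromosome 2, 91118144 to 91136516, plus strand), had 329 counts or 5.67 CPM and 321 counts or 5.16 CPM. Its ratio of 0.909 (0.777 to 1.06) was within counting error of equality. The giant spring protein gene Ttn was near it with a ratio of 0.862 (0.800 to 0.930).

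The proportions among the 10 genes differed between the libraries, most for the heavy chain. Relative to Myl7, a measure that is free of the scaling of libraries but not of transcript length, Myh6 was 3.8-fold lower (3.52 to 4.10), Ryr2 1.90-fold lower (1.69 to 2.14) and Mybpc3 1.60-fold lower (1.35 to 1.89). Actc1 stayed closest to Myl7, with a change of 0.916-fold (0.851 to 0.987), followed by Myl4 with 1.13-fold (1.04 to 1.23). Tnni3, Sln and Tnnt2 were higher relative to Myl7, by 1.39-fold, 1.52-fold and 1.56-fold, and Nppa by 1.92-fold (1.49 to 2.49). Myl7 has the shortest transcript of the 10, with 590 nt. With the trend with transcript length removed (described below, and chosen for this measure after seeing the data), Myh6 was 2.02-fold lower relative to Myl7, while the direction of Ryr2, Mybpc3 and Actc1 turned, to 1.03-fold, 1.06-fold and 1.15-fold. Of the summed CPM per kb of the 10 genes, Myh6 made 11.8% in the control and 3.06% in the PM2.5 library, while Tnnt2 went from 9.15% to 14.1% and Tnni3 from 9.08% to 12.5%. The shares of Myl7, 18.9% and 18.7%, were almost equal.

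**Figure D2:**
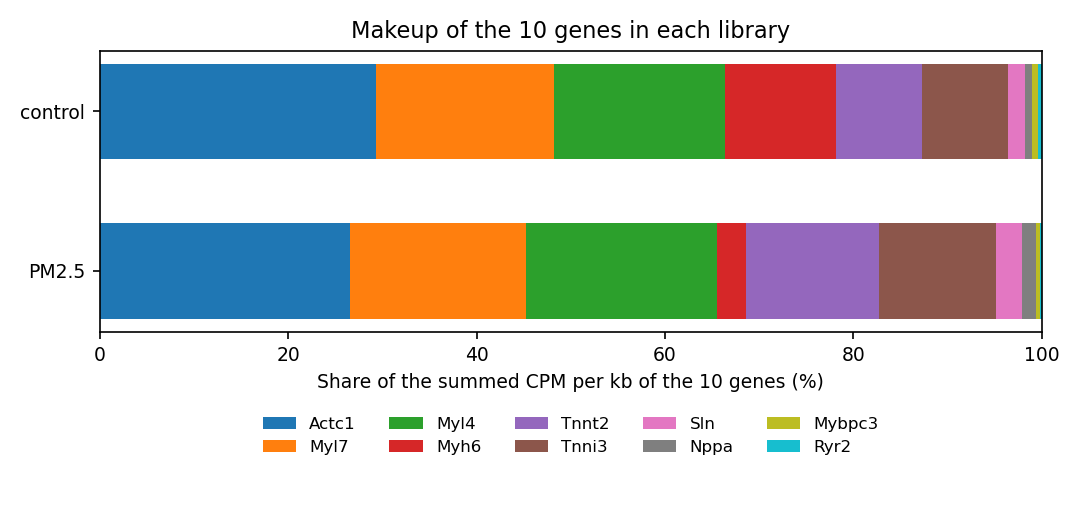
Share of each gene in the summed CPM per kb of the 10 genes (x axis, percent), with 1 bar per library. The segment of Myh6 narrows from 11.8% in the control to 3.06% in the PM2.5 library, while those of Tnnt2 and Tnni3 widen.

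Of the 2 calcium handling members, the pump inhibitor Sln was counted as higher and the release channel Ryr2 as neither. Sln encodes sarcolipin, a short membrane peptide that binds the calcium pump (ENSMUSG00000042045, chromosome 9, 53850164 to 53854560, plus strand). It had 319 counts or 5.50 CPM and 755 counts or 12.1 CPM, a ratio of 2.21 (1.93 to 2.52). Ryr2, the release channel of the store (ENSMUSG00000021313, chromosome 13, 11553102 to 12106945, minus strand), had 895 counts or 15.4 CPM and 734 counts or 11.8 CPM. Its ratio of 0.764 (0.692 to 0.844) excluded equality by counting but did not reach 1.5-fold, and it came to 1.0 with the trend with transcript length removed. Casq2, which holds calcium inside the store, was 1.71-fold higher (1.48 to 1.97), so the Ryr2 count per Casq2 count went from 2.98 to 1.34. Pln, the other pump inhibitor, was 1.60-fold higher (1.43 to 1.80), and the pump gene Atp2a2, which most cell types use, was 1.66-fold lower (1.63 to 1.70).

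Nppa, the precursor of atrial natriuretic peptide, a hormone that promotes salt excretion and relaxes vessels (ENSMUSG00000041616, chromosome 4, 148000722 to 148002079, plus strand), had the highest ratio of the 10 and the fewest counts. It went from 89 counts or 1.54 CPM to 266 counts or 4.28 CPM, and the ratio was 2.79 (2.18 to 3.58). The wide interval follows from the 89 control counts. An antisense gene that overlaps it, Gm13054, had 0 and 7 counts. The sister peptide gene Nppb, a ventricular stress marker, had 0 and 3 counts, which is no more than the floor of 3 counts, so no fold is given. Corin, the protease that cleaves the precursor, had 162 and 138 counts and a ratio of 0.794 (0.628 to 1.0).

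As a group, 5 of the 10 genes (Nppa, Tnnt2, Sln, Tnni3 and Myl4) were at least 1.5-fold higher with an interval excluding equality, and 1 (Myh6) was lower. Myl7, Actc1, Mybpc3 and Ryr2 met neither size. Over all 14518 genes tested, those whose mean reached 1 CPM, 14.9% were higher by that rule and 19.1% lower. That split depends on the scaling, being 23.8% and 9.90% with library totals and 19.5% and 13.2% with the upper quartile. All 10 members reached that mean in the control library alone. Their median log2 ratio was 0.63, against -0.09 over all genes tested, with quartiles of -0.48 and 0.33. The summed CPM, which is not per length, went from 398.6 to 422.7 CPM, a ratio of 1.06 (1.04 to 1.08). Lower values of Myh6, Ryr2 and Mybpc3 were set against higher values of the other 7. Myh6 alone made 41.1% of the control counts of the 10 genes, so the sum leans on it. Without Myh6 the log2 ratio of the sum was 0.62, and without Myl4 it was -0.0032, both chosen after seeing the data.

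**Figure D3:**
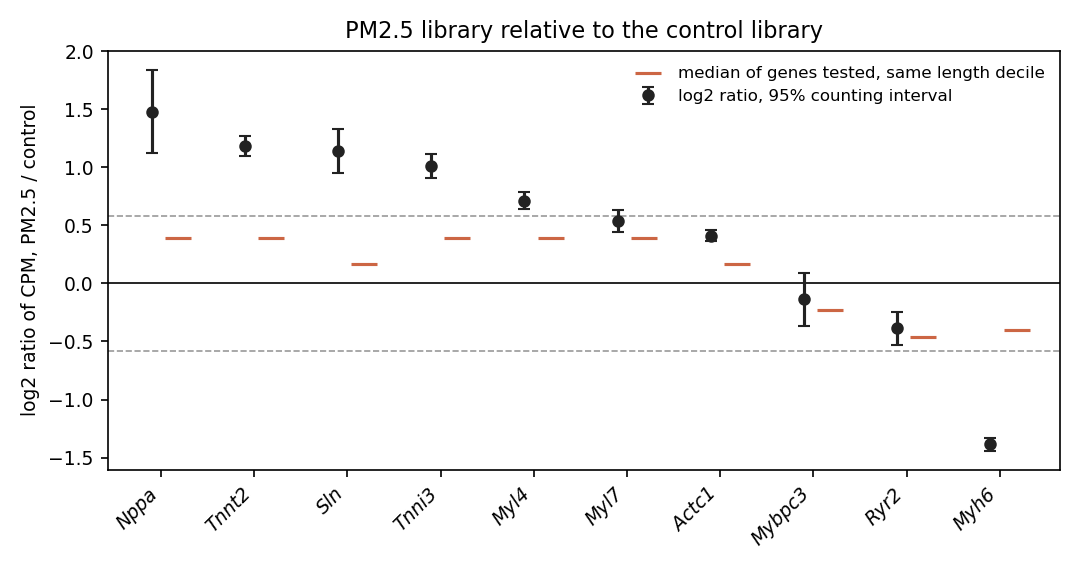
The log2 ratio of CPM, PM2.5 over control, of each gene (points) with its exact 95% counting interval (bars), dashed lines at 1.5-fold, and the median of all genes tested in the same decile of transcript length (orange dashes). Nppa, Tnnt2, Sln, Tnni3 and Myl4 lie above the upper dashed line and Myh6 lies below the lower one.

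The ratios also divided by transcript length. The 7 members with a transcript of at most 1473 nt all had ratios above 1, and the 3 longest, Mybpc3 with 4163 nt, Myh6 with 6113 nt and Ryr2 with 16814 nt, all had ratios below 1. Spearman's rho between the log2 ratio and length was -0.71 over the 10 genes and -0.41 over 14387 genes tested that had a length, both as descriptions over genes that share the same 2 libraries. In the decile of the shortest transcripts the median log2 ratio of all genes was 0.39 and 32.7% were counted as higher. In the decile of the longest it was -0.46 and 40.8% were lower. With that trend removed, Ryr2, Mybpc3 and Myl7 came to ratios of 1.0, 1.02 and 0.967, and Actc1 and Myl4 to 1.11 and 1.21. Nppa at 2.02-fold, Tnnt2 and Sln at 1.79-fold each stayed above 1.5-fold, Tnni3 came to 1.48-fold, and Myh6 was still 2.09-fold lower. The median of the 10 genes was then 0.22. What sets the trend with length was not tested.

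**Figure D4:**
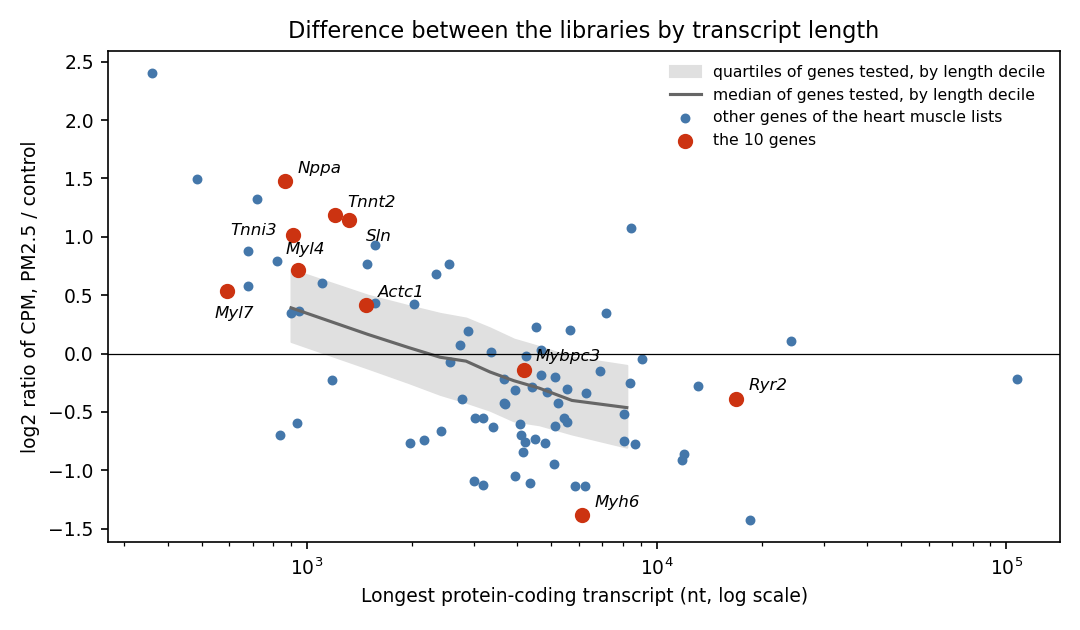
The log2 ratio of CPM, PM2.5 over control, against the length of the longest protein-coding transcript (log scale) for the 10 genes (red), other tested genes of the heart muscle lists (blue), and the median and quartiles of all genes tested by length decile (grey). Mybpc3 lies near the grey line, and Ryr2 past its right end at a similar height. Tnnt2, Sln and Tnni3 lie above the band, Nppa lies higher than the band and left of its start, and Myh6 lies below the band.

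The wider heart muscle programme held 88 further genes in 8 lists, of which 74 reached a mean of 1 CPM. Of these, 11 were higher and 26 lower, with a median log2 ratio of -0.31, against 5 higher and 1 lower among the 10. The split turned with library totals, to 15 higher and 11 lower, and was 12 and 18 with the upper quartile, so counts of lower genes in these lists rest on the scaling. Over all genes tested the shares were 14.9% higher and 19.1% lower, and 11 of 74 is the same share as the first of these. With the trend with transcript length removed, 8 were higher and 14 lower, against 13.9% and 15.0% of all genes, so the counts rest on that trend too. The rest of the thin filament had 1 higher gene, Tnnc1, and 2 lower of 4. The lower ones were Lmod2, which elongates the filament, at 1.70-fold, and Nebl at 1.68-fold, while tropomyosin, Tpm1, had a ratio of 1.14. In the control library Nebl stood at 44.0 CPM per kb, above all of the 10 genes but Actc1. Which lung cells its reads came from was not tested. Of 9 further thick filament genes none was higher and 4 were lower, led by Myh7. Of 12 Z disc genes, 1 was higher and 4 lower: Fhl2 was 1.90-fold higher (1.56 to 2.32), and Actn2, the alpha-actinin that crosslinks sarcomeres, was 2.13-fold lower (1.90 to 2.40). Cmya5 was 1.88-fold lower. Of 14 further calcium handling genes, 3 were higher and 6 lower. S100a1, which tunes the release channel and pump, was 1.84-fold higher (1.76 to 1.92), and the sodium-calcium exchanger Slc8a1 2.69-fold lower (2.39 to 3.03).

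Among 7 further genes of the natriuretic peptide system none was higher and 3 were lower, of which the protease Furin was 2.16-fold and the amidating enzyme Pam, a major protein of atrial granules, 1.62-fold lower. Many cell types express both. Of 11 channel and coupling genes, 2 were lower, Hcn2 by 2.18-fold and Popdc2 by 1.67-fold. The atrial potassium channel genes Kcnj3 and Kcnj5, which form the acetylcholine-gated channel, had ratios of 0.744 (0.559 to 0.989) and 1.02 (0.787 to 1.32), and the connexin Gja5 0.746. Of 7 transcription factor genes none was higher and 4 were lower, with Tbx5, also active in lung mesenchyme, at 2.06-fold (1.95 to 2.18) and Mef2a at 1.5-fold. Below 1 CPM, Nkx2-5 had 23 and 3 counts, a ratio of 0.122 (0.0234 to 0.402). Its PM2.5 count is no more than the floor of 3 counts, so the size of that ratio is uncertain.

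**Figure D5:**
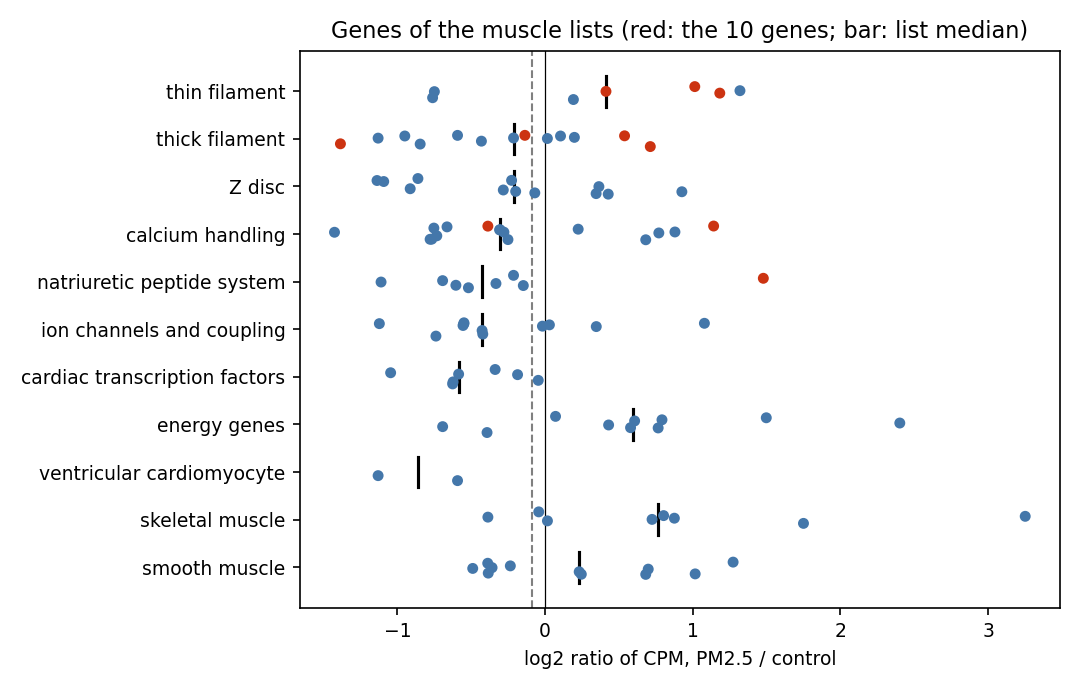
The log2 ratio of CPM, PM2.5 over control, of each gene tested in 8 heart muscle lists and 3 lists for other muscle cells (rows), with the 10 genes in red, the list median as a black bar and the median of all genes tested as a dashed line. The natriuretic list holds Nppa at 1.48 alone to the right, and Myh6 at -1.39 is the lowest point of the thick filament row.

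The energy genes that heart shares with skeletal muscle and brown fat had 5 higher and 1 lower of 10, with a median of 0.59. Over all genes tested 14.9% were higher and 19.1% lower. The cytochrome oxidase subunits Cox8b and Cox7a1 were 5.29-fold (4.04 to 7.01) and 2.82-fold higher, and Pgam2 was 1.62-fold lower. With the trend with transcript length removed, the median of the energy genes was 0.22. Of the 5 higher ones only Cox8b and Cox7a1 then stayed above 1.5-fold, at 3.21-fold and 1.81-fold. Fat markers moved beside them: 10 of 12 were higher and 1 lower, their sum went from 214 to 821 CPM, and Ucp1 had 8 and 4855 counts. Only Elovl3 of that list had no control count. Skeletal muscle markers had 5 higher and none lower of 8, with a sum of 11.7 and 23.5 CPM. Tnnt3 and Tnni2 were 9.53-fold and 3.36-fold higher, while Tnnc2 and Myh4 had no count in either library and Pvalb none in the control. Smooth muscle markers had 4 higher and none lower of 11, with a sum of 1256 and 1400.6 CPM and Cnn1 at 2.42-fold and Tagln at 2.02-fold. These lists also shifted with the length trend removed. The median log2 ratio went from 0.76 to 0.42 for skeletal muscle, from 0.23 to 0.009 for smooth muscle and from 2.60 to 2.27 for fat. Ventricular markers had 2 lower of 2 measured. Their sum went from 43.6 to 20.6 CPM, nearly all of it Myh7. Red blood cell markers had 6 lower and 1 higher of 7, with a sum of 5815 and 2700.2 CPM. Of the lung genes Sftpc, Sftpb, Ager and Scgb1a1, which together made 39250 and 52443 CPM, 1 was higher. The part of these other tissues in the values of the 10 genes was not tested.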

How the data were processed

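Per the labels' protocols, messenger RNA of lung was selected on beads, made into stranded libraries and sequenced in pairs of 125 bp. Per the submitters' processing notes, TopHat2 2.1.1, HTSeq 0.6.0 and build mm10 were used. Not given in the sources used here were the annotation and the strand setting. The authors deposited raw read counts per Ensembl gene, with 1 blank line in the PM2.5 file that carries no count.

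Symbols, coordinates and lengths came from GENCODE M21 (GRCm38), which named 35449 of 37315 identifiers. Library sizes were scaled over the whole table with edgeR 4.0.16 (TMM, factors 0.923 and 1.08), and CPM and ratios were computed from these, with Clopper-Pearson intervals at 95%. Genes whose mean reached 1 CPM were tested, and the call needed 1.5-fold and an interval excluding 1. The floor is 3 counts, or 0.0517 CPM (control) and 0.0482 CPM (PM2.5). Reads are not independent molecules, so intervals and floors cover counting error only. The trend with length was a lowess fit (fraction 0.3). The longest protein-coding transcript replaced the longest of any type after it was seen that those of Myl4 and Tnnt2 retain introns. Genes named beside the 10 were, per list, up to 2 called genes in each direction, ranked on the interval bound closer to 1, and a fixed set of 20 genes, of which a few are not reported here. Irx4, Bmp10, the list members at 0, Elovl3 and Dnaaf3 and Gm13054, which overlap members, were named after their values were seen. With 2 libraries a gene has a single difference, so no gene was sought for a like pattern. The members and lists were chosen with earlier results of these data known. The steps were tested on simulated data with counting noise alone, which held neither spread between animals nor a trend with transcript length. Python 3.11.15, scipy 1.17.1, statsmodels 0.14.6, R 4.3.3 and, for size factors, DESeq2 1.42.0 were used.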

Additional observations from a re-analysis of the deposited data

How the results depend on the processing

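Scaling moved all genes alike: the median of all genes was shifted by 0.23 (log2) under library totals and by 0.14 under upper-quartile scaling. The median of the 10 genes was then 0.86 and 0.76, the log2 ratio of their summed CPM 0.31 and 0.22, and 11 of the wider heart muscle genes were lower with library totals. Members counted as higher were then 7 and 6, against 23.8% and 19.5% of all genes. Mybpc3 ran from -0.15 to 0.09 and so has no firm direction, Ryr2 from -0.40 to 0.00 and Myl7 from -0.05 to 0.77. With the length trend removed, 3 members were higher, the median was 0.22, and 14 wider genes were lower. Of all genes 13.9% were then higher and 15.0% lower. With the longest transcript of any type 4 members were higher, Myl4 among them, the median was 0.36 and 16 wider genes were lower. The shares over all genes were 14.1% higher and 15.5% lower in that setting. At 2-fold, 4 of the 74 wider genes were higher and 7 lower, against 7.25% and 6.04% of all genes. With the interval bound beyond 1.5-fold the counts were 7 and 15, against 10.2% and 14.4%. At a mean of at least 10 CPM, 3 of the 7 members tested were higher. Of 39 wider genes tested at that mean, 4 were higher and 15 lower. The shares over all genes were then 8.31% higher and 21.1% lower. Among alternatives chosen after seeing the data, the summed log2 ratio was 0.62 without Myh6, -0.0032 without Myl4 and 0.56 per kb, and the median was 0.86 without Myh6 and Ryr2. Relative to the other 9 members, Actc1 had a log2 change of 0.45, against a fall relative to Myl7. Relative to Myl7 with the length trend removed, Actc1, Ryr2 and Mybpc3 turned, to log2 changes of 0.21, 0.049 and 0.084. Per length, 5 members kept their place in the control order and 4 in the PM2.5 order with the union of exons, and 6 in each with the longest transcript of any type. Myh6 was counted as lower in every setting run. No paired analysis was possible because each group has 1 library, and no library could be left out. Nppa, at 89 control counts, is the member that depth limits most.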

Other observations

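Genes of the pacemaker and embryonic inflow programme, which pulmonary vein muscle can share, were close to the detection limit. Hcn4, the pacemaker channel, had 48 and 34 counts, a ratio of 0.660 (0.413 to 1.05). Shox2, a factor that keeps pacemaker identity, had 12 and 2 counts, a ratio of 0.155 (0.0169 to 0.698). Isl1 had 1 and 6 counts, a ratio of 5.59 (0.678 to 257). The PM2.5 count of Shox2 and the control count of Isl1 lay below the floor of 3 counts, so the sizes of these ratios are uncertain. The atrial kinase gene Sbk2 had 26 and 12 counts, a ratio of 0.430 (0.198 to 0.883). All 4 lay below a mean of 1 CPM and were chosen after their values were seen.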
